A study of Homo sapiens with 8 samples.

Results

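The genes described here are STMN2, GRM3, SLITRK3, KCNN3, PRTG and the locus ENSG00000272796, most of them known from neurons or the developing nervous system. They were chosen by their lower counts in HERVH knockdown cells than in WT cells, and they make up 6 of the 57773 genes counted and 6 of the 23474 genes that passed the expression filter. RNA-seq was performed on H9, a human embryonic stem cell (hESC) line, in 8 libraries, 2 for each of 4 conditions. WT cells were untreated and carried wild-type CHD7 with an HA tag. HERVH knockdown cells had the same tagged genotype and were harvested 24 h after LNA-GapmeR treatment. CHD7 knockout cells were CHD7 -/- and untreated, and HERVH element deleted cells lacked the element on chromosome 2 and were untreated. For the transfection the knockdown cells were replated as single cells with a ROCK inhibitor, whereas the WT libraries came from untreated cells, so in these comparisons the loss of HERVH RNA and the GapmeR treatment itself cannot be told apart. CHD7 knockout and element deleted cells were grown from edited clones, and the labels do not say whether replicates came from separate cultures, so p-values measure the spread between these libraries only.

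HERVH is a family of endogenous retroviruses whose copies are transcribed at high levels in hESCs. A GapmeR is a short antisense oligonucleotide with locked nucleic acid ends and a DNA centre, which directs RNase H to cut RNA that pairs with it. CHD7 is an ATP-dependent chromatin remodeler that binds enhancers, and mutations in it cause CHARGE syndrome, in which tissues of the neural crest and nervous system are affected. STMN2 (stathmin 2, also known as SCG10) binds tubulin in growing axons and is a classic target of the repressor REST. GRM3 is a G protein-coupled receptor for glutamate that lowers cyclic AMP. SLITRK3 is a postsynaptic adhesion protein that organises inhibitory synapses, and KCNN3 (SK3) is a potassium channel opened by calcium through calmodulin. PRTG (protogenin) is an immunoglobulin superfamily receptor of the early neural tube, related to DCC and neogenin.

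The 3 HERVH GapmeRs are shown because the knockdown, and so the choice of the genes, rests on them. Each is 16 bases long and is written 5′ to 3′.
SHHERVH_3: ggaagatttgggacga
SHHERVH_4: attgggacctagctcg
SHHERVH_12: atgtggagtgggtagc
On GRCh37, the build of the read counts, no site complementary to any of them with at most 2 mismatches lay on the transcribed strand of GRM3, SLITRK3, KCNN3, PRTG or STMN2. ENSG00000272796 has no position here and could not be searched. The span of PRTG did hold 1 such site on the opposite strand, at chr15:56010556-56010571, with 1 mismatch to the target of SHHERVH_3. The perfect target and the site follow, with the differing base of the site in capitals (G3A, counted from the 5′ end of the target).
Target of SHHERVH_3: tcgtcccaaatcttcc
Site within PRTG: tcAtcccaaatcttcc
This site reads on the plus strand and PRTG is transcribed from the minus strand. Of the 22744 tested genes with a position, 2.38% had a site with at most 2 mismatches on the transcribed strand and 3.66% had one on the opposite strand. With 3 mismatches allowed, KCNN3 had 2 sites, GRM3 and PRTG had 1 each, and SLITRK3 and STMN2 had none, which made 6.77 sites per Mb in these genes and 6.92 per Mb in all tested genes. ESRG, a long noncoding RNA made from a HERVH copy, had 3 perfect sites on its transcribed strand.

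The promoters of GRM3 and PRTG are shown as those of the genes that were lower in both HERVH knockdown and CHD7 knockout cells and that had a single promoter in the RefSeq table (GRCh38.p14). Each runs from 250 bases before to 50 bases after the start of the gene, and CpG dinucleotides are in capitals.
GRM3 promoter, chr7:86643659-86643958, plus strand: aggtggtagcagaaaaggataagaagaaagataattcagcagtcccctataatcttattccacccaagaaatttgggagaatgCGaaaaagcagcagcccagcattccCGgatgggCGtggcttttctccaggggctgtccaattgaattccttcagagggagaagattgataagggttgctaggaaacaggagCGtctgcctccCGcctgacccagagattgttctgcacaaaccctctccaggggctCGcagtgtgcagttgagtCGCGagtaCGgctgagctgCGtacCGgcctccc
PRTG promoter, chr15:55743103-55743402, minus strand: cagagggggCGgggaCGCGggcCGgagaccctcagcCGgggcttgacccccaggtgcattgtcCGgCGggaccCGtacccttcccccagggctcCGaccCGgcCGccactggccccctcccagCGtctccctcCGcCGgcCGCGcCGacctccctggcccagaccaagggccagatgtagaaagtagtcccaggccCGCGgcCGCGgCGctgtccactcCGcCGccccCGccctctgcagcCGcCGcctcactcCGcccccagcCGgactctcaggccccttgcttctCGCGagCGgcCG
The PRTG promoter held 33 CpG dinucleotides at a GC content of 76.3%, above 92.6% of the 35116 promoters in the table. The GRM3 promoter held 11 at 52.7%, below the median promoter (14 CpG, 58.7% GC). These promoters differed widely in CpG content. STMN2, also lower in both conditions, had no promoter in the table, and the part of promoter content in the changes was not tested. The SOX core motif AACAAT, searched on both strands, was in the GRM3 promoter and in none of the other 6 promoters listed for PRTG, SLITRK3 and KCNN3, and 10.1% of all promoters held it.

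The libraries held 14802049 to 23156445 reads on genes, so that 3 counts corresponded to 0.128 to 0.219 CPM (reads scaled to a common library size). CHD7 had a mean of 650 CPM in WT cells and 197 CPM in CHD7 knockout cells, and ESRG had 402 CPM in WT and 164 CPM in HERVH knockdown cells. HERVH knockdown replicate 2 stood apart: it was the shallowest library, had the lowest TMM factor (0.929, against 0.977 to 1.03 in the others) and the largest share of alignments set aside as not unique (7.65%, against 5.58% to 5.99%), and its change against WT rose with GC content where that of replicate 1 fell. Summed over 12 pluripotency markers, the level was 7000.5 to 7052.9 CPM in WT, 7800.0 to 7942.9 in HERVH knockdown, 7173.8 to 8498.4 in CHD7 knockout and 7146.9 to 7201.7 CPM in element deleted cells, and none of the 12 passed the test in any comparison. Single markers could differ more between knockdown replicates 1 and 2: POU5F1 had 829 and 1470 CPM, L1TD1 979 and 550 and DPPA4 799 and 500. SOX2 had 237 and 225 CPM.

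In WT cells the mean levels of the genes ranged from 1.79 CPM for ENSG00000272796 to 49.0 CPM for PRTG. Per kb of exon, STMN2 was the highest at 4.71 ± 1.68 CPM (SD, n = 2), followed by PRTG at 3.35 ± 0.282 and GRM3 at 2.95 ± 0.364 CPM per kb. KCNN3 had 1.02 ± 0.257 and SLITRK3 0.828 ± 0.155 CPM per kb. The WT libraries of neighbours in this order overlapped, except those of GRM3 (lowest 2.69) and KCNN3 (highest 1.2 CPM per kb). ENSG00000272796 has no entry in the annotation used and so no length.

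**Figure D1:**
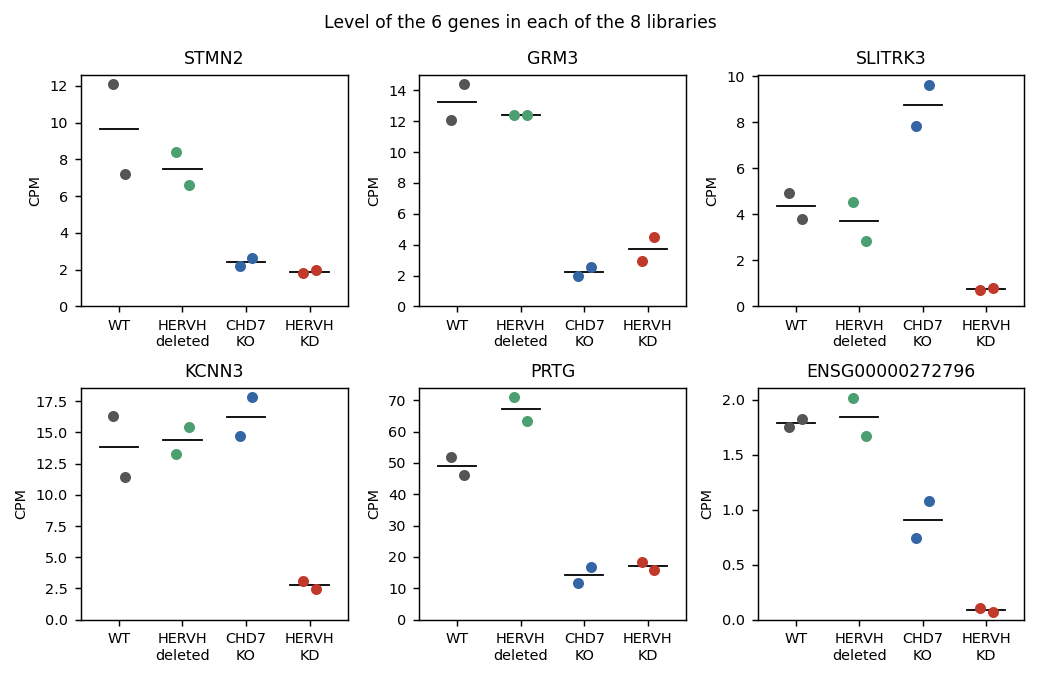
Level of each gene in CPM (vertical axes, linear from 0, different for each gene) in the 2 libraries of each of the 4 conditions, with points for libraries and bars for means. HERVH knockdown libraries are below every WT library for all 6 genes, as the choice of the genes requires, whereas CHD7 knockout libraries are below WT for STMN2, GRM3, PRTG and ENSG00000272796, above WT for SLITRK3 and overlapping WT for KCNN3.

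STMN2, the tubulin-binding protein, was at 12.1 and 7.20 CPM in WT and at 1.81 and 1.97 CPM after HERVH knockdown. It had 2.17 and 2.64 CPM in CHD7 knockout and 8.38 and 6.58 CPM in element deleted cells. The WT and element deleted libraries overlapped, and all 4 lay above those of the other conditions. The lower WT value and the lower element deleted value were both replicate 2.

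GRM3, the glutamate receptor, had 12.1 and 14.4 CPM in WT and 2.96 and 4.52 CPM in HERVH knockdown cells. CHD7 knockout cells had 1.94 and 2.58 CPM, the lowest of the 4 conditions, and both element deleted libraries had 12.4 CPM. Its order therefore differed from that of STMN2, with CHD7 knockout below HERVH knockdown and no overlap between them.

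PRTG, the neural tube receptor, had the most counts of the 6 genes, from 220 to 1662 per library. It had 51.9 and 46.1 CPM in WT, 18.4 and 16.0 CPM in HERVH knockdown and 11.6 and 16.9 CPM in CHD7 knockout cells. The latter conditions overlapped. Element deleted cells had 71.0 and 63.3 CPM, above both WT libraries.

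SLITRK3, the synaptic adhesion protein, had 4.94 and 3.79 CPM in WT and 0.712 and 0.801 CPM in HERVH knockdown cells, the latter from 13 and 11 counts. CHD7 knockout cells had 7.86 and 9.63 CPM, more than every other library, and element deleted cells had 4.53 and 2.86 CPM. HERVH knockdown and CHD7 knockout libraries thus lay on opposite sides of WT for this gene.

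KCNN3, the calcium-activated channel, had 16.3 and 11.4 CPM in WT and 3.07 and 2.48 CPM in HERVH knockdown cells. CHD7 knockout cells had 14.7 and 17.8 CPM and element deleted cells 13.3 and 15.4 CPM. Only the HERVH knockdown libraries stood apart, since the 6 others overlapped.

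ENSG00000272796 had 1.75 and 1.82 CPM in WT and 0.110 and 0.0728 CPM in HERVH knockdown cells. These knockdown values rest on 2 counts and 1 count. Summed over replicates, 3 counts in knockdown against 77 in WT gave a ratio of 0.0524 (exact 95% interval 0.0106 to 0.159, for counting error only). CHD7 knockout cells had 0.739 and 1.08 CPM, below WT and above HERVH knockdown, and element deleted cells had 2.01 and 1.67 CPM.

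In the comparison that chose the genes, all 6 passed the thresholds for DEGs (FDR below 0.01 and at least 2-fold) as lower in HERVH knockdown than in WT cells, as did 0.136% of all genes tested, or 32 genes. This background moved with the fit: calls in both directions numbered 51, but 2 without WT replicate 1, 6 in the fit of 4 libraries, 347 after GC correction and 825 without knockdown replicate 1. Because the choice used these values, they are a description. The log2 fold change was -2.35 for STMN2 (SE 0.333), -2.53 for SLITRK3 (SE 0.379) and -2.31 for KCNN3 (SE 0.271), or 4.95- to 5.76-fold lower. GRM3 (-1.83, SE 0.278) and PRTG (-1.51, SE 0.206) changed less. Taken singly, knockdown replicates 1 and 2 differed from the WT mean by -2.30 and -2.19 on the log2 CPM scale for STMN2. The corresponding differences were -2.12 and -1.52 for GRM3 and -1.41 and -1.60 for PRTG. Both replicates were thus low for each of them, as the choice of the genes requires. Without knockdown replicate 2 the log2 fold changes were -2.16 for GRM3 and -1.42 for PRTG. The knockdown replicates differed most: over 12704 genes the median SD of log2 CPM was 0.254 in HERVH knockdown. It was 0.125 in WT, 0.111 in CHD7 knockout and 0.0821 in element deleted cells. The fit estimated the spread of each gene from all 4 conditions together, and the part of this in the calls was not tested. The calls depended on the WT libraries: without WT replicate 1 none of the 6 passed, without WT replicate 2 only STMN2 and KCNN3 passed, and a fit of the 4 WT and knockdown libraries alone called 0 of 6. The CHD7 knockout libraries entered through the shared estimate of spread, and without CHD7 knockout replicate 1 or 2 the calls were 1 (KCNN3) and 2 (KCNN3 and PRTG).

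Whether loss of CHD7 moved the same genes was examined in 2 comparisons, of which the comparison with WT shares its WT libraries with the choice of the genes. Against WT, 3 of 6 were called lower and none higher, where 0.234% of all genes tested were called lower and 0.337% higher. GRM3 fell 5.85-fold (log2 fold change -2.55, SE 0.287, edgeR quasi-likelihood FDR 0.000405), PRTG fell 3.45-fold (-1.79, SE 0.208, FDR 0.000528) and STMN2 fell 4.01-fold (-2.00, SE 0.318, FDR 0.00522). SLITRK3 had a log2 fold change of 1.0 (95% interval 0.35 to 1.65) with an FDR of 0.142 by edgeR, and KCNN3 had a log2 fold change of 0.23 (95% interval -0.28 to 0.74, FDR 0.848). ENSG00000272796 had a log2 fold change of -0.98 (95% interval -1.94 to -0.02) and an FDR of 0.44. Without CHD7 knockout replicate 1 none of the 3 calls held, with FDRs of 0.0185 for GRM3, 0.0241 for PRTG and 0.109 for STMN2. STMN2 was also lost without CHD7 knockout replicate 2 (FDR 0.0595) or without WT replicate 1 (FDR 0.0794).

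The second comparison set CHD7 knockout against HERVH element deleted cells, and its fold changes use none of the libraries that chose the genes. Here 2 of 6 were called, both lower, where 0.349% of all genes tested were called lower and 0.767% higher. PRTG fell 4.73-fold (log2 fold change -2.24, SE 0.21, edgeR FDR 5.59e-05) and GRM3 fell from 12.4 to 2.26 CPM (-2.46, SE 0.287, FDR 0.000332). STMN2 had a log2 fold change of -1.64 (SE 0.318) with an edgeR FDR of 0.0122 and so was not called, although it was called by DESeq2 (adjusted p = 0.000353) and after GC correction (FDR 0.00156). SLITRK3 was 2.35-fold higher at an edgeR FDR of 0.0511, and it was called higher in the fit of these 4 libraries alone (FDR 0.000974). KCNN3 had a log2 fold change of 0.18 with a 95% interval of -0.33 to 0.69, and ENSG00000272796 had -1.03 (-1.98 to -0.07) at an FDR of 0.356. Without CHD7 knockout replicate 1 only PRTG was called, and GRM3 had an FDR of 0.0122.

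**Figure D2:**
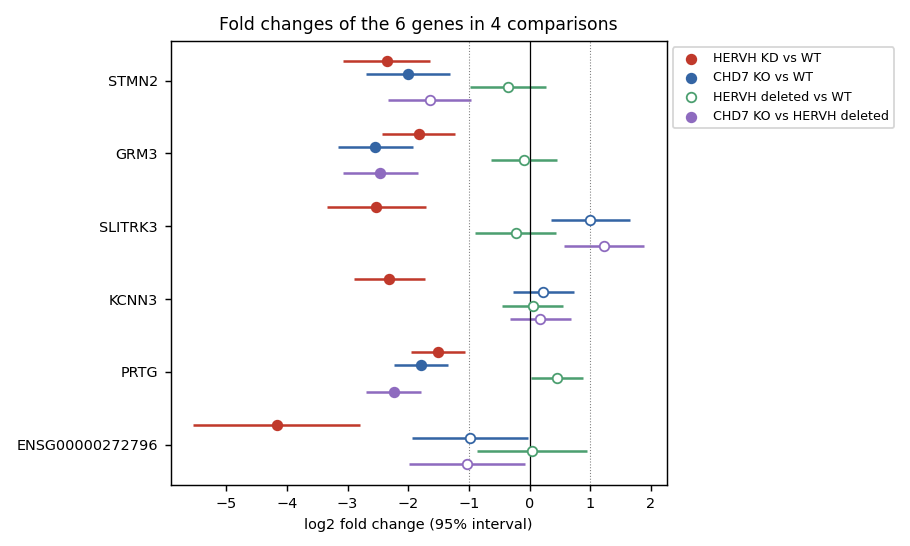
Log2 fold change (horizontal axis) with its 95% interval for the 6 genes in the 4 comparisons, with filled points where FDR was below 0.01 and the change at least 2-fold and dotted lines at 2-fold. GRM3 and PRTG are filled on the left for HERVH knockdown and for both CHD7 knockout comparisons, whereas SLITRK3 and KCNN3 lie left of 0 for HERVH knockdown and right of 0 for CHD7 knockout.

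HERVH element deleted cells, in which a single copy was removed, were compared with WT for the same genes. None of the 6 was called by edgeR's quasi-likelihood test, where 0.0298% of all genes tested were called lower and 0.0% higher. At an unadjusted p below 0.05 there was 1 gene, PRTG, with a log2 fold change of 0.45 (95% interval 0.03 to 0.88, edgeR FDR 1), and DESeq2 called 0. The intervals were -0.99 to 0.27 for STMN2, -0.64 to 0.46 for GRM3, -0.90 to 0.44 for SLITRK3 and -0.46 to 0.56 for KCNN3. In this fit each of these excluded a 2-fold fall, that of STMN2 only narrowly. The interval of ENSG00000272796, -0.86 to 0.95, did so as well. For STMN2 the limit depended on the fit: DESeq2 gave a log2 fold change of -0.35 with an SE of 0.338. Without WT replicate 2 its log2 fold change was -0.68.

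Over the 8 libraries the genes varied in different ways. GRM3 and PRTG had a Pearson correlation of log2 CPM of 0.951, STMN2 and PRTG of 0.919, and SLITRK3 and KCNN3 of 0.929. Between GRM3 and SLITRK3 it was 0.0146 and between PRTG and SLITRK3 it was 0.119. These correlations share the same 8 libraries and rest largely on the differences between conditions, so they are descriptions. Among 14930 other genes with a mean log2 CPM of at least 1, those most like the mean profile of the 6 included DPY19L1 (r = 0.986), FRMD5 and RRAGD (0.982 each) and PCBP3 (0.980). DPY19L1 was at 40.7 CPM in WT, 39.5 in element deleted, 32.0 in CHD7 knockout and 26.2 CPM in HERVH knockdown cells. Its changes were smaller than the knockdown changes of the 6 genes, and none of these 4 genes passed the thresholds in any of the 4 comparisons.

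Gene length and GC content were examined because they went with the change of all genes in HERVH knockdown cells. STMN2 lies on GRCh37 at chromosome 8, 80523352 to 80578393 (plus strand), GRM3 at chromosome 7, 86273225 to 86494195 (plus), and SLITRK3 at chromosome 3, 164904508 to 164914897 (minus). KCNN3 lies at chromosome 1, 154669931 to 154842757 (minus), and PRTG at chromosome 15, 55903742 to 56035350 (minus). All 5 are annotated as protein coding. GRM3 spans 221 kb, KCNN3 173 kb and PRTG 132 kb, longer than 94.3%, 92.0% and 88.7% of tested genes, whose median is 18.1 kb. STMN2 spans 55 kb (percentile 73.8) and SLITRK3 10.4 kb (percentile 39.4), so SLITRK3 was the exception among them. The exonic GC content was 38.4% for PRTG (percentile 9.18), 42.0% for STMN2 (25.2), 44.8% for KCNN3 (38.4), 47.6% for SLITRK3 (50.1) and 50.2% for GRM3 (59.4).

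In HERVH knockdown cells the median log2 change of all tested genes was 0.281 in the shortest and -0.179 in the longest of 5 equal bins of gene span. The longest bin held 20 of the genes called lower and 3 of the genes described here, GRM3, KCNN3 and PRTG. Both knockdown replicates showed this order at its ends, from 0.266 to -0.100 in replicate 1 and from 0.195 to -0.276 in replicate 2. With GC content the replicates went opposite ways: from the lowest to the highest of 5 GC bins the median went from 0.074 to -0.158 in replicate 1 and from -0.326 to 0.464 in replicate 2. In CHD7 knockout cells the medians over the bins of span were within -0.061 to 0.044, and over the bins of GC content they went from 0.053 in the lowest to -0.144 in the highest. Of the 5 genes with a position, all were still past the thresholds in the HERVH knockdown comparison after correction for GC content. After correction for length all but GRM3 were, which had a log2 fold change of -1.62 and an edgeR FDR of 0.0116. ENSG00000272796 has no length or GC content here, so neither correction was applied to it. The part of length and GC content in the fall of these genes was not tested further.

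**Figure D3:**
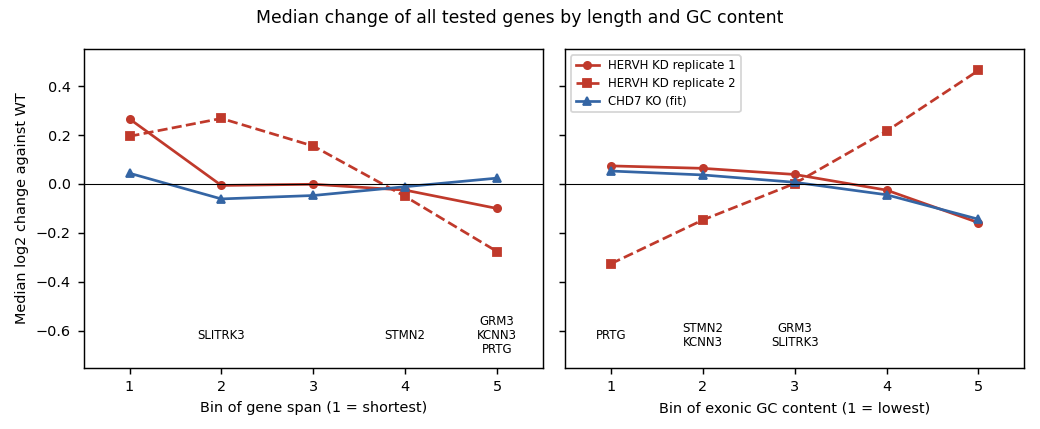
Median log2 change against WT (vertical axis) of all tested genes with a position in 5 equal bins of gene span (left) and exonic GC content (right), for each HERVH knockdown replicate and for the CHD7 knockout fit, with the names of the genes described here under their bin. Replicate 2 rises from -0.326 to 0.464 with GC content while replicate 1 goes from 0.074 to -0.158, and both are lowest in the bin with the longest spans.

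Genes near the 5 placed loci were examined to see whether a whole region moved. Of 144 expressed genes within 5 Mb of KCNN3, 143 had values above 0 in CHD7 knockout against WT, their median being 0.534 on the log2 scale, and the median against element deleted cells was 0.603. KCNN3 itself (0.23 and 0.18) was below 91.7% and 93.8% of these neighbours, respectively. Its level in CHD7 knockout cells is thus that of a gene inside a region that was higher as a whole, and the part of the region in it was not tested. In the same comparison the neighbours of STMN2, GRM3, SLITRK3 and PRTG had medians of -0.048, 0.002, 0.045 and 0.100. STMN2, GRM3 and PRTG were each below all of their neighbours (14, 18 and 38 genes), and SLITRK3 was above 94.4% of its 18. In HERVH knockdown cells, the comparison that chose the genes, the medians of these neighbours were within -0.239 to 0.071. The antisense genes annotated within GRM3 and PRTG had at most 4 counts in any library. Whether reads in shared stretches were left out as ambiguous cannot be told without the strand setting of the counting.

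**Figure D4:**
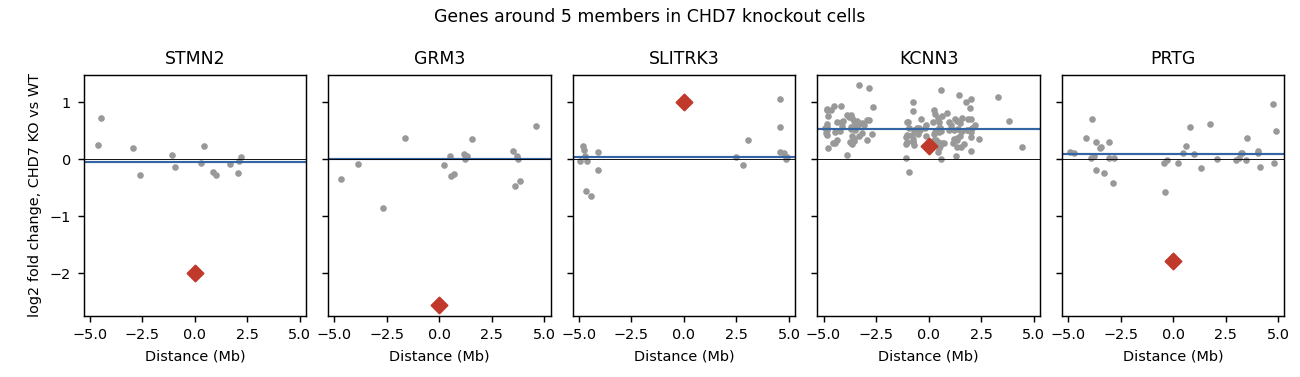
Log2 fold change in CHD7 knockout against WT cells (vertical axis) of expressed genes within 5 Mb of each placed gene, by distance between gene starts in Mb (horizontal axis), with a diamond for the gene itself, a blue line for the median of the neighbours and a black line at 0. The 144 neighbours of KCNN3 lie around 0.534 and KCNN3 below most of them, while STMN2, GRM3 and PRTG lie far below neighbours whose medians are near 0.

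Of 22 paralogs of these genes, 19 were tested and none was called in HERVH knockdown cells (median log2 fold change -0.16, against 0.036 for all tested genes). With 0.136% of all genes tested called lower there, none among 19 is near that share. The stathmins STMN1 and STMN3 had log2 fold changes of -0.56 and 0.51, and STMN4 had at most 3 counts in every library. Among glutamate receptors, GRM4, with 42.2 CPM in WT the most highly expressed of the family, had 0.64, and GRM8 had -0.61. SLITRK1, SLITRK4 and SLITRK5, which encode further members of this adhesion family, had -1.04, -0.89 and -0.93, with edgeR FDRs of 0.062, 0.0683 and 0.0273, and SLITRK6 had -0.08. KCNN1 had -0.57 and KCNN2 -0.01. IGDCC3 and IGDCC4, the closest relatives of PRTG, had -0.16 and 0.01. In CHD7 knockout cells SLITRK1 was called lower than in WT, from 12.3 to 4.00 CPM (log2 fold change -1.62, FDR 0.00719 by edgeR), the opposite direction to the value of SLITRK3. SLITRK2 and SLITRK4 were called higher in CHD7 knockout than in element deleted cells. For SLITRK4 the means were 15.1 CPM in CHD7 knockout, 11.9 in WT and 3.3 CPM in element deleted cells, and SLITRK2 had 0 and 1 counts in the element deleted libraries against 26 and 28 in WT, so that these differences lay partly in the low level of the deleted cells.

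Other neuronal genes were counted in lists for the roles of the 6. Among 21 pan-neuronal genes, 1 was called lower in HERVH knockdown cells, MAP2 (a dendritic microtubule protein), from 43.4 to 17.3 CPM (log2 fold change -1.32, FDR 0.00603 by edgeR). The list's median was -0.12 and 13 had negative values. TUBB3 (13.4 and 21.1 CPM in knockdown, 4.11 and 6.83 in WT) and GAP43 (14.5 and 11.5, against 8.82 and 5.33) were higher in both knockdown libraries. Of all genes tested, 0.136% were called lower in this comparison, so lists without a call are near that share. The summed level of this list was 2150.0 to 2179.0 CPM in WT and 2035.9 to 2164.5 CPM in knockdown libraries. DPYSL3 was the largest part of it, with 962 and 1020 CPM in WT and 860 and 829 CPM in knockdown libraries. Of 24 glutamate receptor and transport genes, SLC1A3, a glial glutamate transporter, was called lower (-1.46, FDR 0.00519), 19 had negative values and the median was -0.50. None of 20 potassium and calcium channel and calmodulin genes was called (median -0.39, 16 negative), nor was any of 12 neural progenitor genes tested (median -0.05). None of 10 genes of the REST repressor complex was called (median -0.20), and REST had 132 CPM in WT, 115 in HERVH knockdown and 138 CPM in CHD7 knockout cells. Among 20 neuronal genes known as REST targets, VGF, which encodes a secreted neuropeptide precursor, was called higher, from 15 to 166 CPM (log2 fold change 3.48, FDR 2.75e-06), 8 had negative values and the median was 0.18. The median of all tested genes was 0.036. STMN2, itself a REST target, was lower in this comparison, like the 8 genes with negative values in this list and unlike VGF. The part of REST in the level of STMN2 was not tested.

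**Figure D5:**
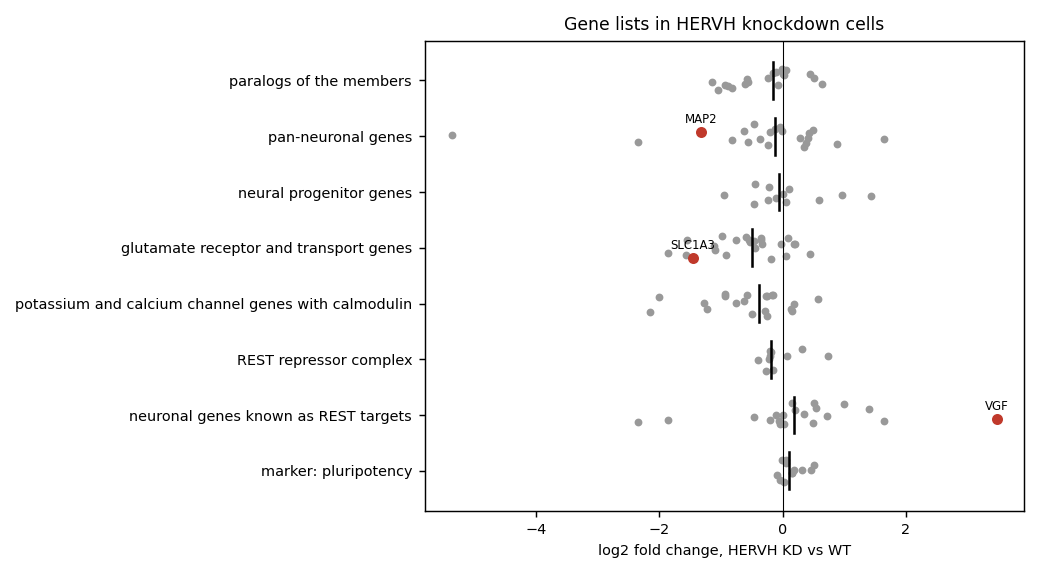
Log2 fold change in HERVH knockdown against WT cells (horizontal axis) of the tested genes of each list, with black bars for medians, grey points for genes that did not pass the thresholds and red points with names for those that did. MAP2 and SLC1A3 are the genes called lower and VGF the gene called higher, and the medians of the glutamate and channel lists lie at -0.50 and -0.39.

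In CHD7 knockout against WT, GAP43 (a growth cone protein) was called higher among pan-neuronal genes (2.14, FDR 0.000757 by edgeR). Among REST targets SYT4, a synaptotagmin, was called higher (3.17, FDR 0.00116) and CHGA, a granule protein, lower (-1.08, FDR 0.00696). No gene of the glutamate, channel, REST complex or progenitor lists was called in that comparison, and their medians were -0.13, -0.16, -0.02 and -0.33, against -0.012 for all tested genes. Of all genes tested, 0.234% were called lower and 0.337% higher there. Against element deleted cells, GAP43 (1.94), SYT4 (2.88), SCG2 (2.27) and L1CAM (1.83) were called higher, and MAP2 (-1.02) and CHGA (-1.09) lower. The progenitor genes FABP7 (-1.84), OTX2 (-1.06), LHX2 and SIX3 were called lower there, SIX3 having 0 counts in both CHD7 knockout libraries and 57 and 47 in the element deleted ones. LHX2 had 4 and 0 counts in CHD7 knockout and 64 and 61 in element deleted libraries. Some of these differences lay partly or mainly in the element deleted cells. SCG2 had 8.54 and 7.48 CPM in WT, 7.44 and 12.7 in CHD7 knockout and 2.27 and 1.89 CPM in element deleted libraries. In WT libraries SIX3 had 18 and 17 counts and LHX2 15 and 26, between those of the other 2 conditions. Against WT, the neuronal genes called in CHD7 knockout cells included some in each direction, and STMN2, GRM3 and PRTG were among those that fell. No gene of these lists was called in element deleted cells against WT, where 0.0298% of all genes tested were called lower and 0.0% higher.

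Markers of other lineages were measured in the same libraries. Of the neural crest, mesoderm and endoderm markers, 7, 3 and 4 were tested, and none was called against WT in any condition. Against WT, 0.136% of all genes tested were called lower in HERVH knockdown and 0.234% in CHD7 knockout cells. FOXA2, an endoderm factor, was called lower in CHD7 knockout than in element deleted cells (-3.15, FDR 0.00687 by edgeR). The 6 endoderm markers summed to 15.4 to 15.7 CPM in HERVH knockdown libraries and 5.3 to 8.0 CPM in WT, so the sums did not overlap. FOXA2 made up most of the knockdown sums, with 10.3 and 9.69 CPM against 1.39 and 4.96 CPM in WT. AFP and CER1 were also higher in both knockdown libraries than in WT, whereas CXCR4 was lower in both. GATA6 had at most 3 counts in every library. The 7 mesoderm markers summed to 224.9 to 259.4 CPM in CHD7 knockout and 136.4 to 185.0 CPM in WT libraries, with GATA4 at most 3 counts throughout. KDR made up nearly all of each sum, and the other mesoderm markers were at most 2.16 CPM in any library. For the 10 neural crest markers the sums were 31.0 to 38.1 CPM in WT, 34.1 to 52.0 in HERVH knockdown and 29.3 to 32.9 CPM in CHD7 knockout libraries, with TFAP2B at 0 counts throughout. The part of these cells in the levels of the 6 genes was not tested, and in bulk libraries fewer cells expressing a gene and less RNA per cell cannot be told apart.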

How the data were processed

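RNA-seq of 8 H9 hESC libraries was used (4 conditions, 2 replicates each, grouped by their labels). The deposited values are raw read counts per gene: the authors mapped rRNA-depleted, strand-specific libraries to hg19 with STAR and counted reads with HTSeq on Ensembl gene models. Tool versions and the strand setting of counting are not given in the sources used here.

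Counts were scaled by TMM, filtered with filterByExpr (23474 of 57773 genes kept) and fitted in edgeR 4.0.16 (R 4.3.3) by the quasi-likelihood test over all 8 libraries with group as the factor and 4 residual degrees of freedom. FDR (Benjamini-Hochberg) was taken over all tested genes, and a call needed FDR below 0.01 and a log2 fold change of at least 1. Log2 CPM used a prior count of 2. Depth was 14802049 to 23156445 counts per library, and intervals on counts cover counting error only. Gene spans and exonic GC content came from an annotation on GRCh37 for 96.1% of genes. GC content and length were corrected by loess offsets (span 0.3). GapmeR sites were searched in the spans of all genes with a position, which left out ENSG00000272796. The fitting code was tested on simulated counts for the knockdown comparison. It recovered 30 of 100 genes changed 2-fold and 84 of 100 changed 4-fold, so a gene that was not called may still have changed 2-fold. Alternatives were RLE scaling, other filters, DESeq2 1.42.0, fits of 4 libraries, a replicate block, FDR below 0.05 and each replicate left out. Summaries and plots were made in Python 3.11.15 (pandas 2.3.3, matplotlib 3.10.9).

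The genes, lists and comparisons were chosen with earlier results of these data known. Named genes are the 6, their expressed paralogs, list genes past the thresholds and the 5 genes most like the mean profile. Lists covered paralogs, pan-neuronal, progenitor, glutamate, channel, REST complex and REST target genes, and pluripotency, neural crest, mesoderm and endoderm markers. Symbols of 2 list genes were not matched. A few genes and 1 further list under this rule were left unreported.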

Additional observations from a re-analysis of the deposited data

How the results depend on the processing

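Of the 6 genes, 6 were called lower in HERVH knockdown cells. This count was 0 in the fit of the 4 libraries of both groups (edgeR FDR 0.0215 to 0.0423, log2 fold changes -4.19 to -1.53) and ranged from 0 to 6 with 1 replicate left out. CHD7 knockout against WT gave 3 calls, and 0 to 3 with a replicate left out. Element deleted cells against WT gave 0 throughout. CHD7 knockout against element deleted cells gave 2 calls, 4 in the fit of these 4 libraries (SLITRK3 and STMN2 added), and 1 to 4 with a replicate left out. Where leaving out a replicate left a group with 1 library, that library was assumed to vary like the others. DESeq2 gave no adjusted p for ENSG00000272796 in the knockdown comparison. The signs turned only for values that were not called, with 1 replicate left out: the log2 fold change of KCNN3 in CHD7 knockout against WT ranged from -0.01 to 0.54. In element deleted cells the ranges were -0.68 to 0.08 for STMN2, -0.18 to 0.04 for GRM3, -0.6 to 0.06 for SLITRK3, -0.19 to 0.36 for KCNN3 and -0.08 to 0.18 for ENSG00000272796. The cause was not tested. Pairing by replicate number was not assumed: over 12704 genes, deviations of same-numbered libraries correlated at 0.286 to 0.427 among WT, knockdown and element deleted cells and at -0.233 to -0.116 between CHD7 knockout and each of these, and whether some libraries share an order was not tested. With the replicate number as a block, 6, 3, 0 and 2 of the genes were called in the same order of comparisons, as without it. Low counts limit SLITRK3 and ENSG00000272796 in knockdown cells. Calls over all genes in the 4 comparisons (51, 134, 7 and 262) were 373, 286, 14 and 413 by DESeq2, 347, 302, 18 and 427 after GC correction, 506, 368, 30 and 512 without an expression filter, and 6, 349, 6 and 584 in fits of 4 libraries. RLE scaling gave 81 in the knockdown comparison. With 1 replicate left out they ranged from 2 to 825, 26 to 384, 5 to 21 and 78 to 516. The block with GC correction gave 313, 286, 14 and 408.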
